A study of Mus musculus with 2 samples.

Results

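The genes described here are 9 transcription regulators: Prdm1, which encodes Blimp1, and Irf8, Maf, Bcl6, Irf4, Rbpj, Id1, Id2 and Id3, most of them known as repressors of osteoclast genes or as partners of such repressors. They were listed by name for that role, and all 9 were found among 14870 genes with an assembled locus. RNA was from wild-type mouse bone marrow cells, and both cultures received M-CSF, the growth factor that keeps macrophage precursors alive and dividing. The culture called M was treated with M-CSF, for which the library labels list 2 days and 0 days of RANKL. The culture called MR was kept in M-CSF for 2 days and then in M-CSF and RANKL, the cytokine that starts osteoclast differentiation. By the labels that second period was 2 days (the culture methods of the study give a longer RANKL period). The labels list no further days of M-CSF for M, so RANKL and time in culture cannot be told apart. Each culture gave 1 library, the age, sex and number of mice are not given in the sources used here, and no difference between M and MR therefore has a replicate check.

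An osteoclast is a multinucleated cell that resorbs bone and arises by fusion of precursors of the macrophage lineage. Before RANKL arrives, these precursors hold osteoclast genes in check with repressors: Irf8 restrains Nfatc1, the master transcription factor of the osteoclast, and Bcl6 sits at the promoters of osteoclast genes such as Ctsk and Dcstamp. Blimp1 is a zinc finger repressor, best known as the regulator that turns B cells into plasma cells, and in osteoclast precursors it is induced downstream of RANK and Nfatc1 and represses the genes of these repressors. Id proteins are helix-loop-helix proteins without a DNA-binding domain that hold E proteins and related factors off DNA, and Rbpj is the DNA-binding factor of the Notch pathway, which restrains osteoclast formation under inflammatory stimuli.

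Expression was read as TPM, transcripts per 1000000, a level that is scaled per length and to that total in each library, so that it can be compared between genes. A gene's TPM was summed over its assembled loci, differences are log2 ratios of MR to M after adding 1 to each TPM, and a gene was called higher or lower in MR when that ratio passed 1 or -1. Folds are ratios of TPM without the added 1, so that a fold and a log2 ratio of the same gene are not exact conversions of each other. Aligned depth was inferred, not measured, as 3.63 Gb in M and 2.98 Gb in MR. It is the most frequent ratio of listed coverage to FPKM, a level scaled per length and to read depth. That ratio was shared by 40.8% of entries in M and 42.9% in MR. The approximate amount of raw reads that the paper reports per sample lies below the inferred value for M. The 95% intervals are exact Poisson for TPM values and Wilson for log2 ratios. They were derived from the read pairs that the inferred depths imply for each gene. These intervals cover counting error only and no error in the inferred depth, and read pairs without molecular identifiers are not independent molecules. In bulk RNA, fewer cells of a type and less RNA per cell cannot be told apart. The labelled bone marrow cells showed the markers of macrophages and osteoclast precursors, all 6 of which were detected in both libraries. Csf1r had 697 TPM in M and 872 TPM in MR, while Adgre1, Mertk and Fcgr1 were lower in MR. Of the 6, 3 were thus lower and none was higher, against 13.0% and 21.1% of all genes tested.

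The sequences most useful for reading the results are those of the primers that the study designed for Prdm1 and the promoters of the 3 genes that open the account, Prdm1, Irf8 and Bcl6, together with Id2. The primers show which part of the Blimp1 transcript a quantitative PCR would see, and both lie in coding exons of Prdm1-201 on the minus strand of chromosome 10 in GRCm38. The forward primer matched exon 5 at chr10:44446876-44446895 and the reverse primer exon 6 at chr10:44442144-44442163, of 8 exons, and the product was 125 nt in each of Prdm1-201, Prdm1-202 and Prdm1-204. Every base of both primers lay within the assembled Prdm1 locus of M and of MR. The primers, 5′ to 3′, are:
Prdm1 forward: taagcctatccctgccaacc
Prdm1 reverse: ttgggttgctttccgtttgt

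The promoters are RefSeq sequences of GRCm38.p6, each the 250 bases before the RefSeq start, and 7 of the 9 genes had an entry, with Maf and Id1 the other two. Capitals mark 4 of the 9 motifs searched on both strands: the core of the Blimp1 site (GNGAAAG), the AP-1 site (TGANTCA), the site shared by STAT factors and Bcl6 (TTCNNNGAA) and the GC-rich element bound by SMAD proteins (GGCGCC). They are shown because Prdm1, Irf8, Bcl6 and Id2 each held at least 1 of these motifs and each passed the threshold of change. The promoter of Prdm1 is chr10:44458749-44458998 on the minus strand, that of Irf8 is chr8:120736108-120736357 on the plus strand, that of Bcl6 is chr16:23988853-23989102 on the minus strand and that of Id2 is chr12:25096093-25096342 on the minus strand.
Prdm1 promoter: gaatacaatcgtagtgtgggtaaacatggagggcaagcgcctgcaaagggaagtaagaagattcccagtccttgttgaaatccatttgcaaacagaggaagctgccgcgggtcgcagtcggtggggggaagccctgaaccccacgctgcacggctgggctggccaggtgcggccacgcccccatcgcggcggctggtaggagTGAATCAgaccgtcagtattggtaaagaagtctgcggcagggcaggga
Irf8 promoter: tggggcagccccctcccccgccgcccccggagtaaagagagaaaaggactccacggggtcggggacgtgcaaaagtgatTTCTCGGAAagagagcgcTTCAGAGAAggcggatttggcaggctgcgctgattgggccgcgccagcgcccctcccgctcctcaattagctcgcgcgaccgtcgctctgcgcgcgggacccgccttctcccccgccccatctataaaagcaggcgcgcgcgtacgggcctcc
Bcl6 promoter: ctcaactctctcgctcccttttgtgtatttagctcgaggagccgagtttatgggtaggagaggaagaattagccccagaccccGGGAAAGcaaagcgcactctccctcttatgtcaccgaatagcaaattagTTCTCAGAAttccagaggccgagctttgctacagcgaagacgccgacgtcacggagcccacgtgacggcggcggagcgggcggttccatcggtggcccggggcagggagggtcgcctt
Id2 promoter: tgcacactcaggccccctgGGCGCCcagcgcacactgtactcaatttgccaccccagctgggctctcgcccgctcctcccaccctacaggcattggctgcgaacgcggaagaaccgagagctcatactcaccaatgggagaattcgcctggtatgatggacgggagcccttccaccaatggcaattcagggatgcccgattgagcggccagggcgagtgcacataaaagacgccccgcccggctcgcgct

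The marked motifs differed in how common they are among the 32817 promoters of the same length. In the Prdm1 promoter an AP-1 site began 48 bases before the start, and 6.75% of all promoters held such a site. The Irf8 promoter held the STAT and Bcl6 letters at 171 and 153 bases before the start. The promoter of Bcl6 held them at 118 bases and, before its second RefSeq start, at 168, 122 and 88 bases. At least 1 such match was in 7.01% of all promoters. A Blimp1 core lay 167 bases before the start of Bcl6, and another, on the opposite strand, 14 bases before the start of Irf4, while 19.4% of all promoters held one. The SMAD element of Id2 lay 231 bases before the start, a motif in 9.59% of promoters.

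Among the motifs not marked, the IRF element (GAAANNGAA), which overlaps the Blimp1 core in letters, was in none of the 7 genes with a promoter and in 7.12% of all promoters. The NFAT core (GGAAA, which the RBPJ core can overlap) was found in Bcl6, Irf8 and Rbpj and in 55.6% of all promoters. The RBPJ core (TGGGAA) was found in Irf8, Prdm1 and Rbpj, in the first of these only in the promoter of its second RefSeq start, and in 21.6% of all promoters. An E-box (CANNTG), the site of E proteins, was found in 5 of the 7 genes and in 66.2% of all promoters, and a Maf half-site (TGCTGA) only in Irf8, again at its second start, and in 16.1% of all promoters. Irf8, Bcl6 and Rbpj were each searched in 2 promoters, whereas the shares count single promoters with at least 1 match. Each match is a description of letters in a window and was not tested as a binding site. The median GC content of all promoters was 52.4%, against 59.2% for Prdm1, 67.2% for Irf8 and 58.4% for Bcl6.

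Prdm1 was higher in MR, and most but not all of the other genes were lower. Of the 9 genes, 1 was higher in MR by the threshold, Prdm1, while 21.1% of all 13383 genes tested were. Lower in MR were 5 of the 9, Irf8, Maf, Bcl6, Id1 and Id2, against 13.0% of all genes. The remaining 3, Id3, Irf4 and Rbpj, did not pass the threshold in either direction. The median log2 ratio of all genes tested was 0.21, with the 5th percentile at -1.78 and the 95th percentile at 2.32. All 9 genes passed the filter of at least 1 TPM in at least 1 library, and all 9 had a locus shared with no other gene.

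**Figure D1:**
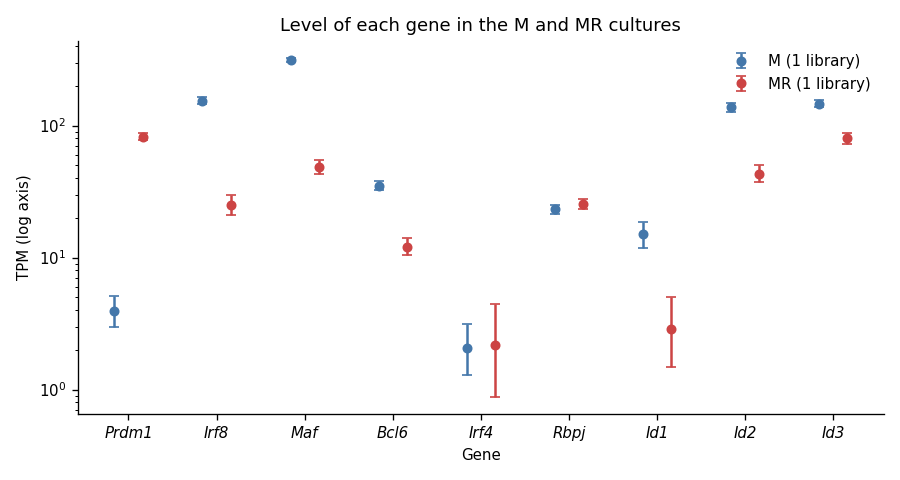
TPM of each of the 9 genes on a log axis in the M library (blue) and the MR library (red), with bars for the 95% exact Poisson counting interval. Prdm1 rises from 3.96 to 82.7 TPM, Irf8, Maf, Bcl6, Id1 and Id2 are lower in MR, and the intervals of Irf4 and of Rbpj overlap between the libraries.

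Prdm1 lies on chromosome 10 from 44437177 to 44528501 on the minus strand, with 4 annotated transcripts of which 3 are coding. Its level was 3.96 TPM in M (2.99 to 5.14, from 56 read pairs) and 82.7 TPM in MR (77.5 to 88.2, from 920 read pairs). The intervals do not meet, and Blimp1 mRNA was 20.9-fold higher in MR, a log2 ratio of 4.08 with an interval of 3.69 to 4.46. A lower ratio was found for 99.0% of all genes tested. By level, Prdm1 exceeded 25.6% of the genes in M and 86.0% of the genes in MR, which made it the most abundant of the 9 genes in MR after having been the eighth in M. In MR, however, its interval overlapped that of Id3 at 80.4 TPM (73.2 to 88.2), so that the first and second places are not separated.

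The Prdm1 transcript was assembled nearly whole in both libraries. The locus of M ran from 44437193 to 44458756 and covered 97.3% of the annotated exon bases, and the locus of MR ran from 44437170 to 44458747 and covered 97.5%. Its 5′ end lay 8 bases upstream of the start of Prdm1-201 in M and 1 base downstream of it in MR, which is also the RefSeq start that follows the promoter printed above. The gene's outermost annotated start, that of the retained-intron transcript Prdm1-203, lies 69753 bases further upstream, and no assembled locus of either library reached it. The amplicon of the study's primers is shared by the 3 coding transcripts, and only the forward primer matched Prdm1-203.

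**Figure D2:**
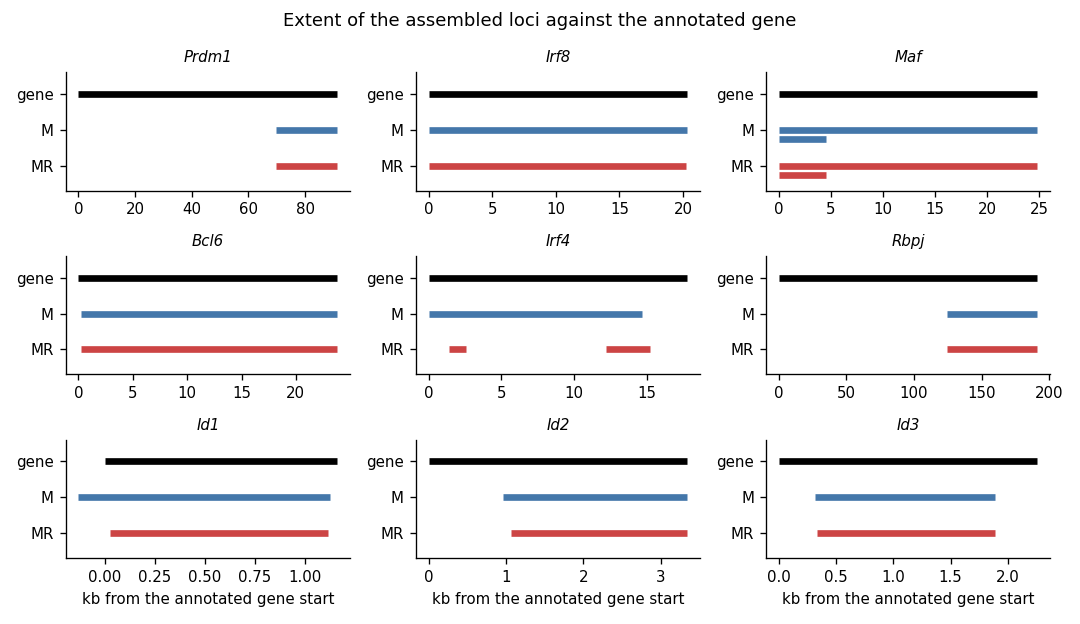
Extent of the assembled loci of each gene in M (blue) and MR (red) below the annotated gene (black), in kb from the annotated gene start in the direction of transcription. Both Prdm1 loci begin 69753 bases into the annotated gene, to within 8 bases, both Maf libraries hold a short locus inside the long one, and Irf4 in MR consists of 2 fragments.

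Irf8, the interferon regulatory factor that sets monocyte and dendritic cell fates and blocks Nfatc1, lies on chromosome 8 from 120736358 to 120756694 on the plus strand. It had 154.7 TPM in M (145.7 to 164.1, from 1112 read pairs) and 25.2 TPM in MR (21.2 to 29.6, from 143 read pairs). Irf8 was thus 6.15-fold lower in MR, a log2 ratio of -2.57 (-2.82 to -2.32), and only 1.73% of all genes had a lower ratio. In M it exceeded 93.3% of all genes in level, and in MR 62.5%. The order of Irf8 and Prdm1 turned over between the libraries, since Irf8 was 39.1 times as abundant as Prdm1 in M and Prdm1 was 3.29 times as abundant as Irf8 in MR.

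The Irf8 locus of M covered all 7055 exon bases and began at the annotated first base, and that of MR covered 98.7% and began 10 bases after it. In M, 2 further loci were assembled on the opposite strand inside Irf8, at 2.18 TPM with 1538 bases over Irf8 exons and at 5.83 TPM with 237 bases, and none was assembled in MR. Whether the library kit keeps the strand is not stated, and without strand such loci and Irf8 itself cannot be told apart.

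Maf, a large Maf factor of macrophages, lies on chromosome 8 from 115682942 to 115707794 on the minus strand. Its summed level was 314 TPM in M (302 to 328) and 48.8 TPM in MR (43.2 to 55.0), a fold of 6.44 lower and a log2 ratio of -2.66 (-2.84 to -2.48). By this sum, Maf was the most abundant of the 9 genes in M and the third in MR, where its interval overlapped that of Id2. Each library held 2 loci for Maf, a long one over nearly all exon bases with 124.5 TPM in M and 19.2 TPM in MR, and a shorter one without a strand inside it with 189.9 TPM and 29.7 TPM. The sum therefore counts the shared stretch under both. With the long locus alone, Maf would stand below Irf8, Id3 and Id2 in M. In MR it would then stand below Id2, Rbpj and Irf8 as well, while its log2 ratio was -2.64.

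Bcl6, a zinc finger repressor that recruits corepressors to osteoclast and B cell genes, lies on chromosome 16 from 23965052 to 23988852 on the minus strand. It had 35.1 TPM in M (32.6 to 37.8, from 693 read pairs) and 12.1 TPM in MR (10.5 to 13.98, from 189 read pairs). It was 2.90-fold lower, with a log2 ratio of -1.46 (-1.69 to -1.23), an interval that overlapped those of Id1 and Id2, and 7.25% of all genes had a lower ratio. The assembled loci began 252 bases inside the annotated start in M and 233 bases inside it in MR and ended at the same annotated 3′ base in both. With Prdm1 the order again turned over, from 8.87 times as much Bcl6 as Prdm1 in M to 6.82 times as much Prdm1 as Bcl6 in MR.

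Irf4, the interferon regulatory factor that works with Blimp1 in plasma cells and promotes Nfatc1 expression in osteoclast precursors, lies on chromosome 13 from 30749226 to 30766976 on the plus strand. It had 2.07 TPM in M (1.28 to 3.17) and 2.18 TPM in MR (0.875 to 4.48), from only 21 and 7 read pairs. The log2 ratio of 0.05 had a wide interval of -1.15 to 1.25, because only the assembled exon bases were counted, and a difference within it was not detectable at this depth. With the full length of the shortest complete coding transcript, 55 and 46 read pairs and an interval of -0.51 to 0.61 would follow. The locus of M held 36.8% of the exon bases, and in MR there were 2 fragments with 5.55% and 20.6%. Irf8 was 74.6 times as abundant as Irf4 in M and 11.6 times in MR.

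The 3 Id genes differed in how far they were lower in MR. Id1, on chromosome 2 from 152736251 to 152737410, had 15.0 TPM in M (11.8 to 18.7, from 78 read pairs) and 2.87 TPM in MR (1.48 to 5.01, from 12 read pairs), a log2 ratio of -2.05 with a wide interval of -2.91 to -1.18. Id2, on chromosome 12 from 25093799 to 25097140, had 137.5 TPM in M (127.8 to 147.8) and 43.2 TPM in MR (37.2 to 49.98), a log2 ratio of -1.65 (-1.88 to -1.41). Id2 and Id1 thus fell past the threshold with intervals that overlap each other. Id3, on chromosome 4 from 136143497 to 136145755, had 146.1 TPM in M (137.4 to 155.2) and 80.4 TPM in MR (73.2 to 88.2). Its log2 ratio was -0.85 (-1.01 to -0.69), within the threshold but outside the intervals of Id1 and Id2, and 15.3% of all genes had a lower ratio. Id2 and Id3 did not differ beyond their intervals in M, whereas in MR Id3 had 1.86 times the level of Id2. Id1 was the least abundant of the 3 in both libraries, with Id3 at 9.75 times its level in M and 28.03 times in MR.

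The 5′ ends of the Id loci were close to the annotated start for Id1 and to the RefSeq start for Id2 and Id3. The 5′ end of Id1 lay 130 bases upstream of the annotated start in M and 25 bases downstream of it in MR. That of Id2 lay 89 bases upstream of the RefSeq start in M and 14 bases downstream in MR, and that of Id3 lay 7 bases to either side of it. In the annotation, Id3-201, the only coding transcript of Id3, begins upstream of the Id3 locus of either library. These loci covered 72.4% of the exon bases in M and 71.6% in MR. All 3 Id genes had loci that began further upstream in M, the library with the higher level and the greater inferred depth. The part of depth in these ends was not tested.

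Rbpj lies on chromosome 5 from 53466152 to 53657362 on the plus strand and has 12 annotated transcripts, 6 of them coding. It had 23.2 TPM in M (21.5 to 25.1, from 645 read pairs) and 25.4 TPM in MR (23.3 to 27.6, from 557 read pairs). The intervals overlap, and the log2 ratio of 0.12 (-0.04 to 0.29) had an interval that holds the median of all genes, 0.21. At this depth the counting interval lay well inside the thresholds of 1 and -1, unlike that of Irf4 when only its assembled exon bases were counted.

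The listed coverage of Rbpj, the mean number of reads over a base, gave another picture and was read as an uncertain value. Coverage was listed at 5.14 in M and 33.5 in MR, which per aligned Gb is a ratio of 7.93 and a log2 ratio of 2.34. Computed back from the FPKM of the same loci and the inferred depth, coverage would be 39.0 for M and 33.7 for MR. The listed coverage amounted to 13.2% of that value in M and to 99.4% in MR. In M, 1.11% of the genes had a lower share, and 7.70% of the genes in M and 7.28% in MR were listed below 50%. The loci began 153 bases apart, 12 bases after the start of Rbpj-208 in M and 13 bases after the start of Rbpj-201 in MR. Whether this belongs to the difference in listed coverage was not tested. In M, 2 loci on the opposite strand lay within Rbpj but outside its exons, at 1.25 and 2.46 TPM, and none was assembled there in MR.

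**Figure D3:**
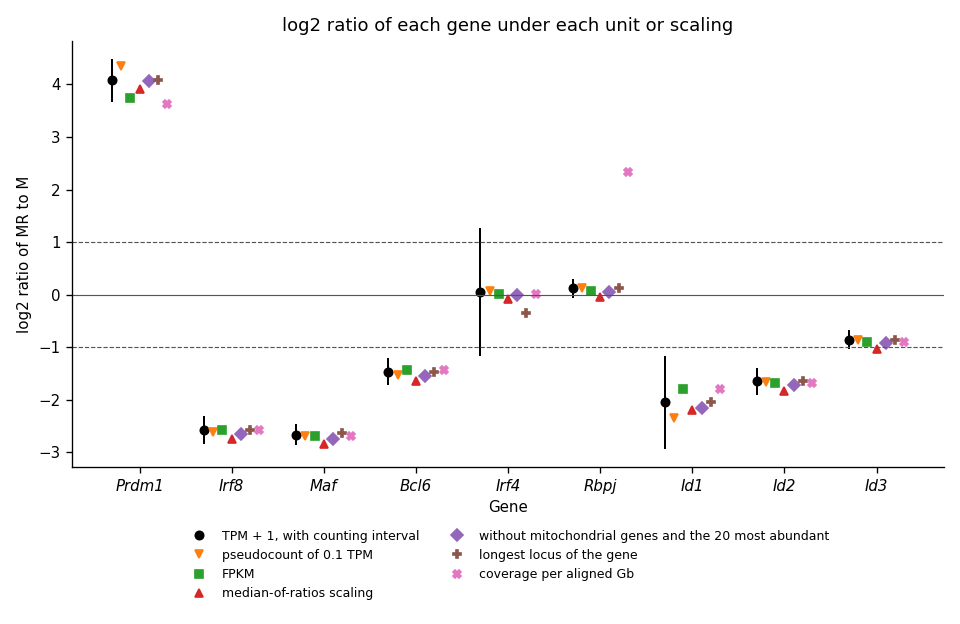
log2 ratio of MR to M of each gene with TPM + 1 (black, with the 95% counting interval) and under each other unit or scaling (coloured marks), with dashed lines at the thresholds of 1 and -1. Coverage per aligned Gb puts Rbpj at 2.34 against 0.12 with TPM, median-of-ratios scaling puts Id3 at -1.03, and the marks of the other genes keep to 1 side of the thresholds.

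Ordered by level, the 9 genes formed groups in which neighbours were not separated. In M, Maf stood first by its summed level, which counts a stretch under both of its loci. Irf8, Id3 and Id2 followed, with all of their intervals overlapping each other, and then came Bcl6, Rbpj and Id1, each apart from the next. Prdm1 and Irf4 were the lowest, and their intervals overlapped narrowly. In MR, Prdm1 and Id3 stood first, then Maf, again by its sum, and Id2, then Rbpj and Irf8 at 25.4 and 25.2 TPM. Bcl6 followed, and Id1 and Irf4 came last, with each of these pairs overlapping. With its long locus alone, Maf would not stand first in M, nor beside Id2 in MR. Expressed against the spread of all genes, Prdm1 lay far above and Irf8 and Maf far below the middle of the distribution, as the plot of all genes shows. Id1 lay far below it too, at -2.05, but its interval of -2.91 to -1.18 held the 5th percentile of all genes, -1.78.

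**Figure D4:**
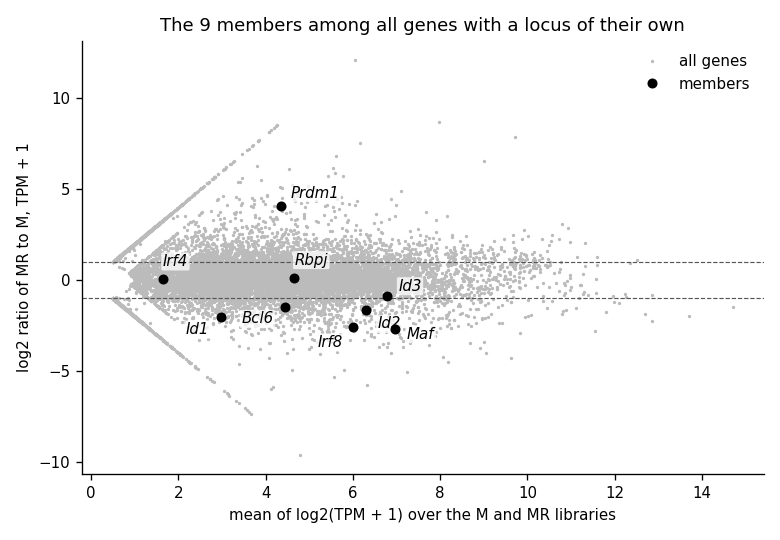
log2 ratio of MR to M against the mean of log2(TPM + 1) over both libraries, for the 13383 genes that had an unshared locus and 1 TPM or more in M or MR (grey) and for the 9 members (black, named), with dashed lines at 1 and -1. Prdm1 sits at 4.08, above 99.0% of the genes, and Maf at -2.66 and Irf8 at -2.57 have 1.52% and 1.73% of the genes below them.

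Genes with nearly the same pair of levels as Prdm1, Irf8 and Bcl6 were found by the distance between their log2(TPM + 1) values over the 2 libraries, among protein-coding genes with a locus of their own. Nearest to Prdm1 were Abcb4 at 3.81 TPM in M and 76.2 TPM in MR (distance 0.13), Fchsd2 (0.20) and Msi2 (0.23). Nearest to Irf8 were Lhfpl2 (0.05), Slamf7 (0.17) and Tlr7 (0.20), the last an endosomal RNA sensor with 138.1 TPM in M and 23.0 TPM in MR. Nearest to Bcl6 were Serpinb9 at 35.0 TPM in M and 12.1 TPM in MR (distance 0.0038), Lpar6 (0.04) and C4b (0.08). Over only 2 libraries such likeness is common, and within a distance of 0.25 there were 3 genes for Prdm1, 6 for Irf8 and 35 for Bcl6.

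The families of these genes did not move as wholes. The IRF family had a median log2 ratio of -0.67, against 0.21 over all genes. Of its 7 tested members, 3 were lower in MR and none was higher, against 13.0% and 21.1% of all genes. Beside Irf8, these were Irf7, the amplifier of the type I interferon response, at 3735 TPM in M and 1318 TPM in MR, and Irf5, a factor of inflammatory macrophages, at 260 TPM in M and 119 TPM in MR. Irf1, Irf2 and Irf3 lay between -0.67 and 0.31, and Irf9 could not be given a level because it lay inside the locus of another gene. Of 4 Maf factors tested, Maf was lower, Maff was called higher with no locus in M and 7.40 TPM in MR, and Mafg and Mafk lay between -0.57 and 0.11.

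Prdm1 was the only gene of the PRDM family above 20 TPM in either library. Of 10 family members tested, 4 were higher in MR and none was lower, against 21.1% and 13.0% of all genes, with a median of 0.11, a sign that turned to -0.05 with median-of-ratios scaling and to -0.20 among genes of at least 10 TPM. The 3 called higher beside Prdm1 had at most 4.26 TPM in MR.

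The partners through which Bcl6 and Blimp1 repress were mostly within the threshold. Of 8 genes tested for Bcl6 and its corepressors, 1 was higher and 1, Bcl6 itself, was lower, beside 21.1% and 13.0% of all genes. The median of 0.07 became -0.11 with median-of-ratios scaling, -0.00 without the most abundant genes and -0.07 with coverage. The one called higher was Bcor, the Bcl6 corepressor, at 7.004 TPM in M and 22.8 TPM in MR. Of 8 cofactors of Blimp1, 2 were higher, a share near the 21.1% of all genes, and none was lower, with a median of 0.17 (-0.01 with median-of-ratios scaling). These were Tle1, a Groucho corepressor, at 5.11 TPM in M and 19.3 TPM in MR, and Hdac2, a histone deacetylase, at 30.8 TPM in M and 71.4 TPM in MR, while Hdac1, Ehmt2 and Prmt5 had log2 ratios between 0.08 and 0.21. The Groucho genes Tle3 and Tle4 had log2 ratios of -0.49 and -0.53.

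Genes known to be repressed by Blimp1 went in both directions. Of 7 tested, 3 were lower and 1 was higher, against 13.0% and 21.1% of all genes, and 3 were within the threshold. The median was -0.85, the value of Id3, against 0.21 over all genes. The list holds Irf8, Bcl6 and Id3 of the 9 genes, so that its count repeats values given above. The remaining gene called lower was Pax5, the B cell identity factor, at 6.52 TPM in M and 1.31 TPM in MR. Myc, a growth regulator that Blimp1 represses in B cells, was higher in MR at 40.1 TPM against 3.92 TPM in M, a 10.2-fold difference. Ciita, another textbook target, had 3.22 TPM in M and 3.89 TPM in MR.

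**Figure D5:**
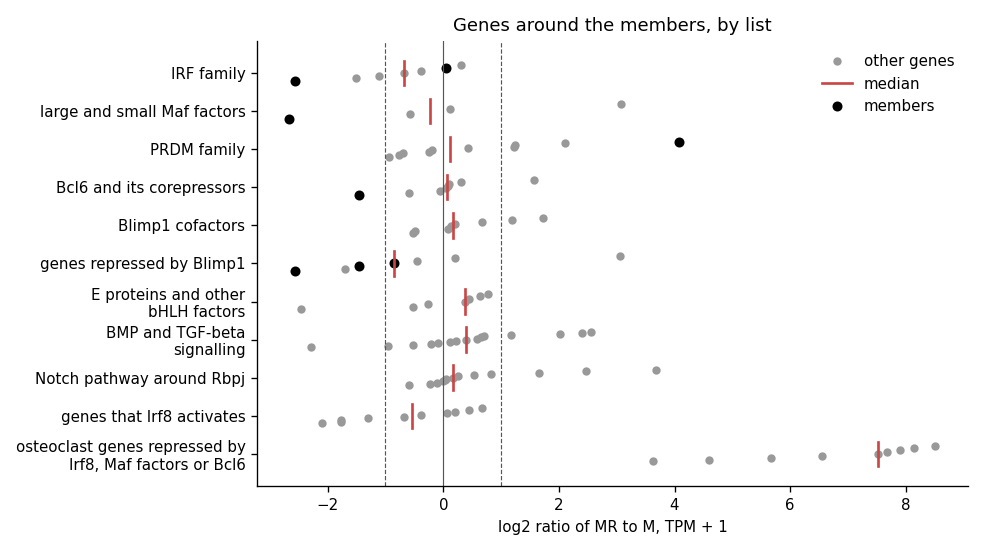
log2 ratio of MR to M for each tested gene of the lists around the 9 genes, with members in black, other genes in grey, the list median as a red bar and dashed lines at 1 and -1. Medians run from -0.85 for genes repressed by Blimp1 to 7.52 for the osteoclast genes, against 0.21 over all genes tested.

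Genes that Irf8 activates in myeloid cells were lower or within the threshold. The list had a median of -0.53, against 0.21 over all genes. Of 10 tested, 4 were lower and none was higher, against 13.0% and 21.1% of all genes. These were Cybb, the catalytic subunit of the phagocyte NADPH oxidase, at 575 TPM in M and 134.3 TPM in MR, Ctss, a lysosomal protease of antigen presentation, at 6604 TPM in M and 1931 TPM in MR, Batf3, a dendritic cell factor, at 12.2 TPM in M and 2.86 TPM in MR, and Il12b, which had 1.46 TPM in M and no locus in MR. Cst3 and Klf4, in the same list, had log2 ratios of 0.44 and 0.66.

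Osteoclast genes listed as downstream of Irf8, the Maf factors or Bcl6 were all higher in MR, and repression of each by these factors was not tested. All 9 of 9 passed the threshold, against 21.1% of all genes. The median was 7.52, the value of Atp6v0d2, against 0.21 over all genes. Nfatc1 had 25.5 TPM in M and 325 TPM in MR, Ctsk, the collagen-degrading protease, had 53.1 TPM in M and 12867 TPM in MR, and Acp5, which encodes TRAP, had 51.9 TPM in M and 4947 TPM in MR. Dcstamp and Ocstamp, both needed for fusion, and Oscar and Calcr were listed with no locus in M and had between 50.05 and 364.5 TPM in MR. These genes were listed for their place in the pathway with their rise already known, and their count is no independent evidence.

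For the partners of the Id proteins, E proteins and other helix-loop-helix factors, the median was 0.38, against 0.21 over all genes. Of 7 tested, 1 was lower, a share near the 13.0% of all genes, and none was higher, against 21.1%. Lyl1, a helix-loop-helix factor of blood progenitors, had 41.7 TPM in M and 6.75 TPM in MR. The E protein genes Tcf3, Tcf4 and Tcf12 had log2 ratios of 0.64, -0.26 and 0.78, none past the threshold, and Id4, the fourth Id gene, had no locus in either library.

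BMP and TGF-beta signalling, the pathway best known to induce Id genes, had 4 of 15 genes higher and 1 lower, beside 21.1% and 13.0% of all genes, with a median of 0.40. Acvrl1, the receptor ALK1 that signals to Id1, was the gene called lower, at 31.9 TPM in M and 5.70 TPM in MR. Tgfbr1, the type I TGF-beta receptor, was higher at 173.4 TPM in MR against 28.7 TPM in M, as were Smurf1, a ubiquitin ligase that degrades BMP SMADs, at 60.1 against 10.6 TPM, and Smad5 at 10.5 against 4.09 TPM. Bmpr1a had no locus in M and 3.07 TPM in MR.

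In the Notch pathway around Rbpj, 3 of 13 genes tested were higher, a share near the 21.1% of all genes, and none was lower, with a median of 0.17. Notch4 had no locus in M and 11.8 TPM in MR, Notch3 had no locus in M and 4.55 TPM in MR, and the ligand gene Jag1 had 3.802 TPM in M and 14.2 TPM in MR. Notch1 and Notch2, the receptor genes with a locus in both libraries, had log2 ratios of 0.03 and -0.23. The classical target genes of Rbpj were at or near 0, with Hes1 at 0.649 TPM in M and no locus in MR, and no locus of Hey1, Hey2, Heyl, Nrarp or Dtx1 in either library.

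Markers of macrophages and of other cells that a bone marrow culture can hold were read beside these genes. Of 6 markers of macrophages and their precursors, 3 were lower in MR and none was higher, against 13.0% and 21.1% of all genes. Adgre1, which encodes F4/80, had 681 TPM in M and 147.9 TPM in MR. Mertk, an efferocytosis receptor, had 108.4 and 15.8 TPM, and Fcgr1, a Fc receptor, had 1158 and 60.5 TPM. The other markers of the list were within the threshold, with log2 ratios of 0.66 for Tnfrsf11a, which encodes RANK, 0.32 for Csf1r and -0.26 for Cd68. The summed level of this list was 5289 TPM in M and 3327 TPM in MR. Dendritic cell markers, relevant to Irf8, Batf3 and Id2, summed to 20.4 TPM in M and 22.3 TPM in MR, with no locus of Cd209a in either and none of Xcr1 and Ccr7 in MR. Of 6 dendritic cell markers tested, Zbtb46 was higher, at 0.765 TPM in M and 2.75 TPM in MR, and Ccr7 was lower, from 2.61 TPM in M, while Clec9a had 2.91 and 2.09 TPM and Itgax 6.66 and 10.4 TPM.

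Markers of B and plasma cells, in which Blimp1, Irf4 and Bcl6 have their best known roles, summed to 38.7 TPM in M and 183.3 TPM in MR. Sdc1, a marker of plasma cells that other cells also express, accounted for the higher sum, with 4.97 TPM in M and 159.7 TPM in MR. Lower in MR were Cd79b at 5.67 and 1.46 TPM, Ms4a1 at 3.11 and 1.04 TPM and Pax5, while Ighm had 14.1 and 13.8 TPM and the plasma cell gene Jchain had no locus in either library. T and innate lymphoid cell markers summed to 103.0 TPM in M and 20.3 TPM in MR, made up almost wholly of Il7r at 89.3 and 10.5 TPM and Cd4 at 13.0 and 9.82 TPM, and Cd3e, Cd3g, Cd8a, Lck and Ncr1 had no locus in either. Neutrophil markers summed to 1201 and 815 TPM with none of 8 past the threshold, stromal and endothelial markers to 64.3 and 86.8 TPM, mast cell and basophil markers to 6.502 and 6.604 TPM and erythroid markers to 6.12 and 3.61 TPM. The part that a changed mix of cells has in the values of the 9 genes was not tested.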

How the data were processed

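The authors trimmed paired reads of 150 bases with Trim Galore, aligned them to mm10 (GRCm38) with HISAT2 and assembled loci with StringTie, and the deposited tables list coverage, FPKM and TPM for each locus of a library. Versions are not given in the sources used here. Entries with gene names carry GRCm39 positions and were not used. Assembled loci were assigned to GENCODE vM21 genes, each to the one whose exons it overlapped most (minimum 50 bases) on its strand, or on either strand where the locus had none, and TPM was summed per gene. A gene was found for 15665 of 19422 loci in M and for 16523 of 19922 in MR, and the others were not used. Genes whose locus was shared with or lay inside another (339 and 208 of 14870) were left out of counts over all genes.

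The pseudocount was 1 TPM and the filter 1 TPM in at least 1 library. With 1 library per group there was no test and no p-value. Read pairs per gene were derived from FPKM, the inferred aligned depth (300 aligned bases per pair) and the shortest complete coding transcript. The exon bases within the locus were used instead where these were fewer, and loci on top of each other were counted once. The named genes were the 9, Nfatc1, the 3 nearest genes of Prdm1, Irf8 and Bcl6, and genes of each list past the threshold with at least 10 TPM. Other genes named with values, such as Pax5, Maff and Notch3, were chosen after their values were seen. The members and lists were chosen with earlier results of these data known. Assignment and ratios were tested on simulated data. Python 3.11.15 with pandas 2.3.3, numpy 2.4.6, scipy 1.17.1 and matplotlib 3.10.9 was used. One gene of the lists is not reported here and was left out of their counts. Protein sequences and the quantitative PCR of the study were not analysed here.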

Additional observations from a re-analysis of the deposited data

How the results depend on the processing

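Of 63 values of the 9 genes under 7 alternatives, 16 equal the reported value by construction, since most genes have 1 locus and all have their own. Of the 47 that could move, 43 stayed within their counting interval, and none of the called genes changed sign. Coverage per aligned Gb, an alternative chosen after seeing the data, gave 3.63 for Prdm1 and 2.34 for Rbpj, whose listed coverage was read as uncertain. By it, 2 of the 9 were called higher, against 15.5% of all genes. Median-of-ratios scaling gave -0.052 for Rbpj and -1.03 for Id3, which then passed the threshold. That scaling moved the median of all genes from 0.21 to 0.04 and the counts from 2818 higher and 1745 lower to 2411 and 2091. With a TPM of at least 10, 1590 genes were higher and 973 lower. With a log2 threshold of 2, 932 were higher and 501 lower, 6.96% and 3.74% of all genes. Of the 9 genes, 1 was then higher and 3 were lower, with fewer calls by the stricter rule itself. Of 77 list medians, 6 changed sign, each given above. No replicate could be left out, since a group is 1 library. No paired analysis was possible because each group has 1 library and no result comes from a test. Depth limits Irf4, with 21 and 7 read pairs, and Id1 in MR, with 12.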
